A study of Schizosaccharomyces pombe with 9 samples.

Results

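The nuclear ribosomal RNA (rRNA) genes of the fission yeast Schizosaccharomyces pombe were examined for RNA recovered with the tagged histone deacetylase Clr3. The members were taken by annotation: every nuclear gene of biotype rRNA, with a called position counted when it lay inside the gene on the transcribed strand. There were 47 such genes among 12606 annotated nuclear genes, of which 36 are dispersed 5S genes and 11 are 18S, 5.8S or 28S genes at the ends of chromosome III. Inside them lay 43 of 6560 nuclear called positions of crosslinked replicate 1, 31 of 4742 of crosslinked replicate 2 and 1 of 127 of the no-crosslink library. Over their nuclear positions the libraries summed to 586303, 262083 and 15100 covering reads, in that order.

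The assay was PAR-CLIP, in which cells take up 4-thiouracil, the photoreactive base is crosslinked to protein by ultraviolet light, and crosslinked bases are read as T-to-C conversions. There were 2 crosslinked libraries and 1 no-crosslink library, all from cells of mating type h+ carrying ura4-delta18, leu1-32 and ade6-M216, the marker imr1R(NcoI)::ura4+ and the allele clr3-3HA-TAP::kan MX. All 3 libraries therefore came from the tagged strain, and no untagged strain was among the PAR-CLIP samples. Cells grew at 30 °C with 10 mg/l uracil and 100 µM 4-thiouracil, then received a further 900 µM 4-thiouracil and 4% glucose and were labelled for 4 h before 12 J/cm2 of light at 365 nm, RNase T1 digestion and purification on IgG beads. The no-crosslink library is named so by its title and by the series design, whereas its other label fields repeat the text of the crosslinked libraries. The labels do not say whether the crosslinked replicates were separate cultures, so their spread may be technical. The 6 RNA-seq samples of the series, 3 seb1-1 and 3 wild type, were not analysed here.

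In fission yeast, the 5S rRNA genes lie singly across the genome and are transcribed by RNA polymerase III with the help of TFIIIA. The 5S RNA binds the large-subunit proteins uL18 (Rpl5) and uL5 (Rpl11) and joins the ribosome with them. The other rRNAs come from long repeats that RNA polymerase I transcribes as a single precursor, from which the spacers ITS1, between 18S and 5.8S, and ITS2, between 5.8S and 28S, are cut out. Clr3 is the histone deacetylase of the SHREC complex, which silences heterochromatin, including the rDNA repeats.

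The 5S genes were compared through a common core of 119 nt, the commonest annotated 5S sequence, whose bases are counted from 1 at its 5′ end. Of the 36 annotated 5S genes, 23 held the identical core, 7 had 1 difference from it, 4 had 2 to 5 and 2 had more. The annotated genes span 80 to 440 nt, since many annotations run past the core. Differences are written with the base of the common core first, then its position, then the base of the copy. The copies that carried most of the signal follow, with the common core (SPRRNA.10) first for comparison. They are shown because they held most of the conversions and differ at few bases. Capitals mark each T called in either crosslinked library in that copy, except in SPRRNA.10, where they mark each core T called in any copy. All are 5′ to 3′ on the transcribed strand of the RefSeq reference ASM294v3.
SPRRNA.10, I:149658-149776, plus strand: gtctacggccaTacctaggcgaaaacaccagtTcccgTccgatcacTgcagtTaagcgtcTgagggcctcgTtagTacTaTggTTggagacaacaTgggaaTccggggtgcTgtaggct
SPRRNA.35, II:2322733-2322851, plus strand, C40T: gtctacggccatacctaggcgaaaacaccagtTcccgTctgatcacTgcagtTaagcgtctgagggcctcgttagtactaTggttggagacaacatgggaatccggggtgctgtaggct
SPRRNA.12, I:912230-912348, minus strand, G1A, C39T and C118T: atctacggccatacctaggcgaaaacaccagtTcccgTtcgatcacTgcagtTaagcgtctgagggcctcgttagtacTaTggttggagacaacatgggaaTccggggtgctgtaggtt
SPRRNA.53, I:1563475-1563593, plus strand, C68T: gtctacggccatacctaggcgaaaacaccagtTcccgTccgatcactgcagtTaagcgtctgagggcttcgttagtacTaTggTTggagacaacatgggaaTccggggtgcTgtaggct
SPRRNA.15, I:3547900-3548018, minus strand, C15G and A74G: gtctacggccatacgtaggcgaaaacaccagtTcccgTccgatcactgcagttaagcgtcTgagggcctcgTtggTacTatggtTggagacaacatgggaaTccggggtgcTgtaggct
SPRRNA.18, I:3891663-3891781, minus strand, T119C: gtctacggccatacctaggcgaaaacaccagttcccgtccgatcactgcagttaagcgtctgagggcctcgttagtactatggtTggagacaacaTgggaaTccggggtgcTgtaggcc

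The rRNA genes held 2.03% of all nuclear T-to-C conversions in crosslinked replicate 1 (377 of 18539; 95% Wilson interval 1.84 to 2.25%) and 2.12% in crosslinked replicate 2 (226 of 10672; 1.86 to 2.41%). They held 0.226% in the no-crosslink library (2 of 885; 0.062 to 0.82%). The crosslinked libraries thus averaged 2.08% ± 0.0595 (SD, n = 2), and each interval lay above the interval of the single no-crosslink library. With 2 libraries against 1, the smallest p an exact one-sided permutation test allows is 0.333, so this difference has no test. As a share of called positions, the rRNA genes made up 0.655% and 0.654% in the crosslinked libraries and 0.787% in the no-crosslink library, where the share rests on 1 position. With at least 2 conversions required, the shares were 1.23% (39 of 3161) and 1.88% (31 of 1653) in the crosslinked libraries and 0.787% (1 of 127) in the no-crosslink library, so the order against the no-crosslink library turned with this requirement. All 127 nuclear positions of the no-crosslink library already had at least 2 conversions, so the requirement changed the crosslinked lists only. The shares over all called positions thus compare lists with unlike minima. The tables list called positions and not all covered bases, so a position that is missing has no known depth, and the intervals cover counting error only.

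Nearly all of this signal came from 5S genes. They held 332 conversions at 30 positions in crosslinked replicate 1 (1.79% of nuclear conversions), 209 at 27 positions in crosslinked replicate 2 (1.96%) and 2 at 1 position in the no-crosslink library. The 18S, 5.8S and 28S genes held 45 conversions at 13 positions in crosslinked replicate 1 (0.243%) and 17 at 4 positions in crosslinked replicate 2 (0.159%), and no position was called there in the no-crosslink library. In SPRRNA.46 (18S), SPRRNA.52 (5.8S) and SPRRNA.49 (28S), 0% of 25-nt windows were unique, occurring once in the reference genome. For 5S cores that share was 26.3% in SPRRNA.35, 27.4% in SPRRNA.12 and 1.05% in SPRRNA.18. Its part in the contrast between classes was not tested. No called position lay antisense to an rRNA gene in any library.

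For scale, the 171 tRNA genes, also made by RNA polymerase III, held 20.2% and 18.9% of nuclear conversions in crosslinked replicates 1 and 2 and 62.0% in the no-crosslink library. The 6 snRNA genes, whose RNAs build the spliceosome, held 4.14% and 4.38% in the crosslinked libraries and none in the no-crosslink library. The 66 snoRNA genes, most of whose RNAs guide rRNA modification, held 3.81% and 4.50% in the crosslinked libraries and 2.82% in the no-crosslink library. The 5S share lay below all of these RNA classes in both crosslinked libraries. However, 21 5S copies with the identical core had no unique core window and no call. Called copies with a core difference held 327 of the 332 5S conversions in crosslinked replicate 1 and 203 of the 209 in crosslinked replicate 2. How reads matching several copies were placed is not known, and its part in this ranking was not tested.

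The conversion rate, which is the percentage of reads covering a position that carry the conversion, also differed in scale between the rRNA classes. At positions with at least 2 conversions, 5S genes had a median rate of 2.33% in crosslinked replicate 1 and 1.96% in crosslinked replicate 2. The 18S, 5.8S and 28S genes had medians of 70.0% and 100.0%, on a median of 5 and 4 reads over all their called positions, and all nuclear positions had 4.17% and 4.62%. The lowest rate among nuclear positions with at least 2 conversions was 0.901% in crosslinked replicate 1 and 0.889% in crosslinked replicate 2. Lower rates are therefore not represented at any depth, and at low depth only high rates appear.

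**Figure D1:**
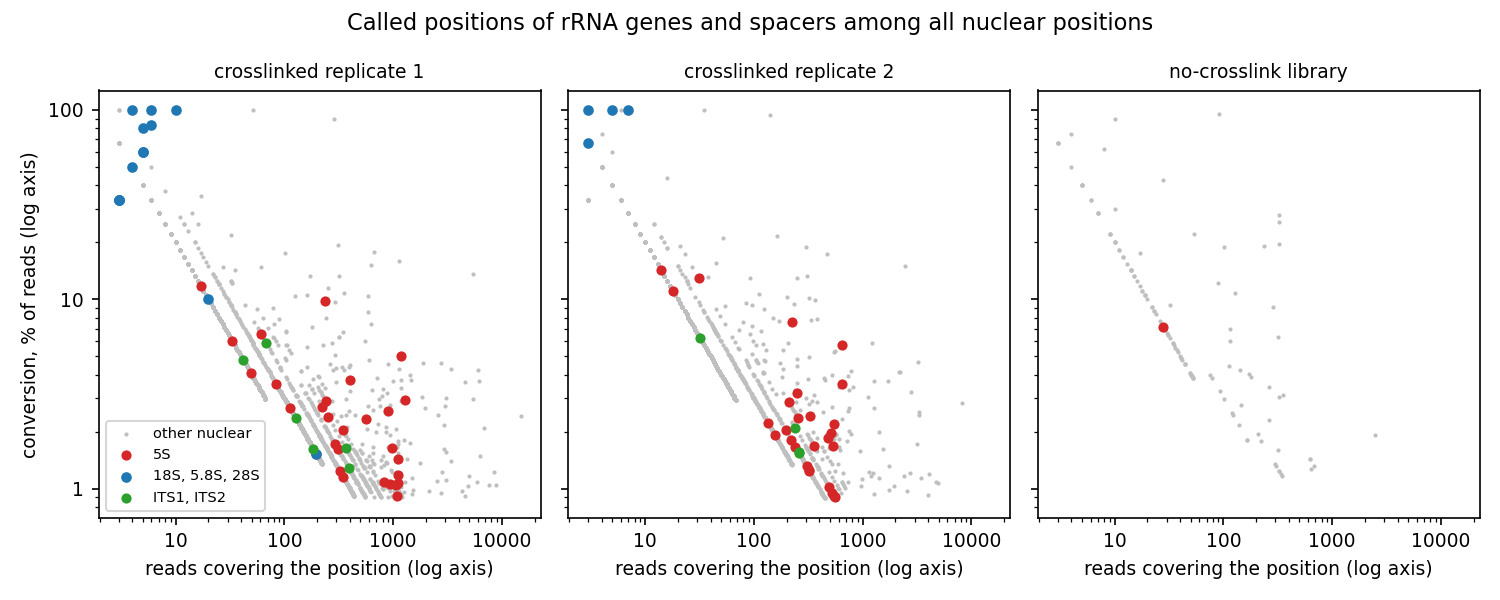
Conversion rate (% of reads, log axis) against the number of reads (log axis) at every nuclear called position, with a panel each for crosslinked replicate 1, crosslinked replicate 2 and the no-crosslink library. The 5S positions (red) reach 1291 reads at rates mostly of a few percent, most 18S, 5.8S and 28S positions (blue) sit at the top left with 3 to 10 reads, and the spacer positions (green) lie with the 5S group.

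Of the 36 5S genes, 9 had a called position in a crosslinked library, 7 in crosslinked replicate 1 and 8 in crosslinked replicate 2. SPRRNA.35 had most conversions, with 117 in crosslinked replicate 1 and 56 in crosslinked replicate 2, followed by SPRRNA.12 with 76 and 52 and SPRRNA.53 with 65 and 52. SPRRNA.15 had 28 and 38, and SPRRNA.18 had 40 and 3. The other called copies had few: SPRRNA.36 had 5 and 4, SPRRNA.40 had 1 and 0, and SPRRNA.26 and SPRRNA.05 each had 0 and 2. All of these genes encode the same 5S RNA of the large subunit, up to the differences given.

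Most 5S conversions came from copies that differ from the common core. The 7 called copies with a core difference held 327 of the 332 conversions in crosslinked replicate 1 and 203 of the 209 in crosslinked replicate 2. The 2 called copies with the identical core, SPRRNA.36 and SPRRNA.26, held 5 and 6 in these libraries, and the other 21 identical copies had no call. In SPRRNA.35, 26.3% of the 25-nt windows of the core occurred once in the reference genome, against 27.4% in SPRRNA.12, 26.3% in SPRRNA.53, 42.1% in SPRRNA.15 and 1.05% in SPRRNA.18. SPRRNA.40 and SPRRNA.05, whose differences T12C and C20T each occur in another copy, had 0% unique windows, as did the 23 identical copies. A unique window did not always go with a call, since SPRRNA.37 (10.5% unique windows) had no called position. The divergent SPRRNA.41 and SPRRNA.54 had none either, at 100.0% each over a frame of 119 nt. That frame runs past their annotated 80 and 111 nt and differs from the common core at 44 and 58 bases. Their shares are therefore not comparable with those of the other copies. No source used here says how reads matching several copies were placed, so the number of called 5S copies does not count the transcribed or bound copies.

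Reads within several copies were most numerous near a base that differs from the common core. The core positions called in each copy were split by their distance from a difference chosen after the values were seen. In SPRRNA.35, which differs at C40T, those within 20 nt of the difference had 894 to 1170 reads in crosslinked replicate 1 and 510 to 642 in crosslinked replicate 2, whereas the core position farther away had 344 and 197 reads. In SPRRNA.12, around C39T, the near positions had 945 to 1291 and 483 to 645 reads, and the far ones had 33 to 309 and 157. SPRRNA.12 also differs at G1A and C118T, and its position 102, counted as far, lies within 20 nt of C118T. Position 102 had the fewest reads of the called positions of this copy, 33 in crosslinked replicate 1. In SPRRNA.53, around C68T, the near positions had 1053 to 1113 and 359 to 544 reads, and the far ones had 252 to 401 and 209 to 224. The read peak thus lay at a different stretch of the same RNA in different copies. In SPRRNA.15, around A74G, the contrast was plain in crosslinked replicate 1 (830 near, 113 to 558 far) and slight in crosslinked replicate 2 (254 to 331 near, 241 to 251 far). SPRRNA.15 also differs at C15G, where no such peak of called positions lay. Its position 33, counted as far, lies within 20 nt of C15G and had 241 reads in crosslinked replicate 2. SPRRNA.18, which differs at T119C alone, was not split in this way. Its positions 112, 102, 96 and 85 had 240, 236, 221 and 61 reads in crosslinked replicate 1.

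**Figure D2:**
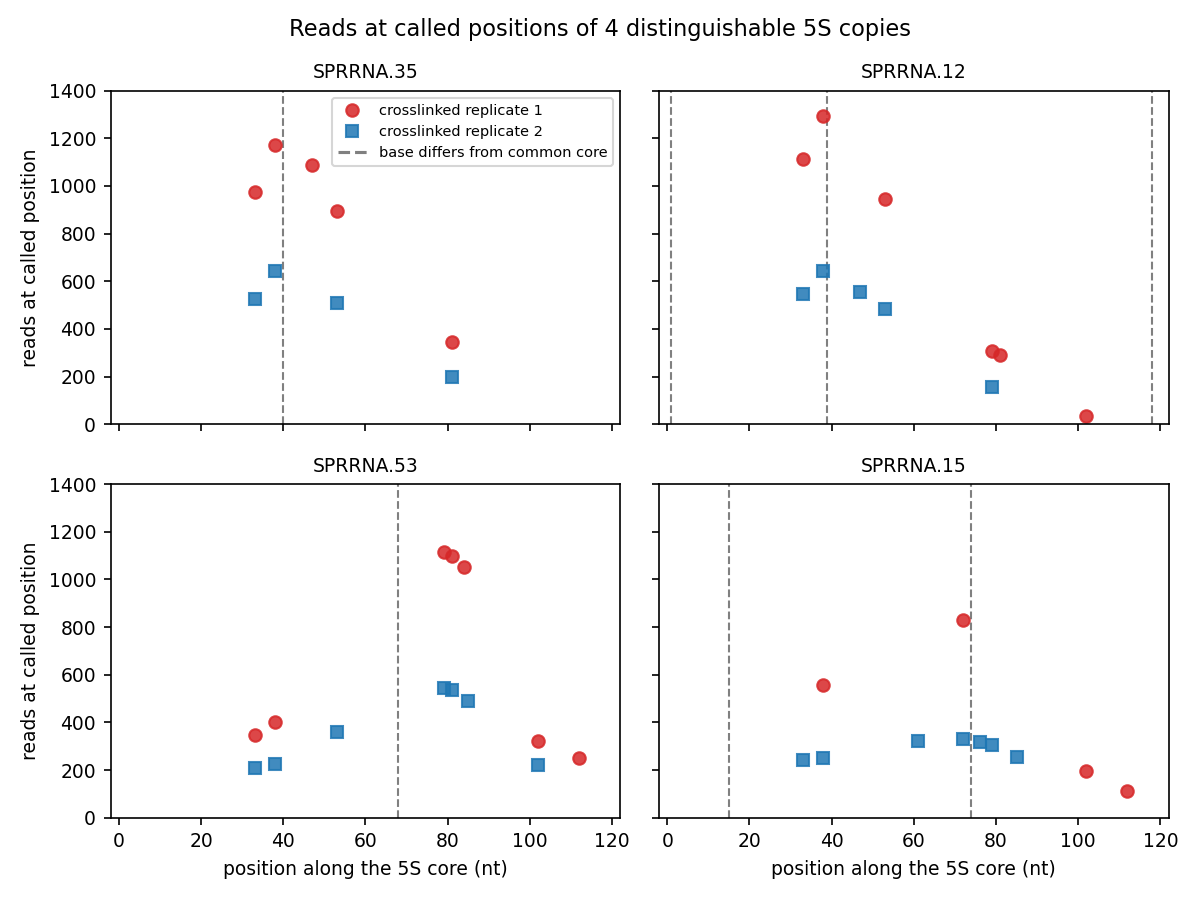
Reads at each called position along the 119-nt 5S core in 4 copies, for crosslinked replicate 1 (red circles) and crosslinked replicate 2 (blue squares), with dashed lines where the copy differs from the common core. In SPRRNA.35, SPRRNA.12 and SPRRNA.53 reads are highest at positions near C40T, C39T and C68T, with a top value of 1291 in SPRRNA.12 and 1170 in SPRRNA.35.

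Because the copies differ in depth along the core, conversions were next set beside each other by core position. The core has 27 T, of which 15 were called in a crosslinked library, 9 in at least 2 copies, 9 in both libraries and 7 in the same copy in both. RNase T1 cuts after G. Of the called T, 4 of 15 followed a G, against 10 of all 27 T of the core.

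Core position 38 recurred most often. It was called in 7 copies and held 38.8% of the 330 core conversions in crosslinked replicate 1 and 44.0% of the 207 in crosslinked replicate 2. The 25-nt window centred on it was unique in the reference genome in SPRRNA.35 and SPRRNA.12. In each of the other called copies that window occurred 32 times. How reads matching several copies were placed is not known, so the 7 copies are not separate observations. Summed over the copies called in a library, 128 of 3472 reads (3.69%) were converted at position 38 in crosslinked replicate 1. In crosslinked replicate 2, 91 of 1811 (5.02%) were. All called positions inside 5S genes summed to 15645 and 9063 covering reads in these libraries. Most conversions at position 38 came from SPRRNA.35 and SPRRNA.12, whose reads were most numerous near C40T and C39T, beside it. The part of depth in its share of conversions was not tested. The position was singled out after its values were seen, and these shares are a description.

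In SPRRNA.35, position 38 had 59 conversions in 1170 reads (5.04%, Wilson interval 3.93 to 6.45%) in crosslinked replicate 1 and 37 in 642 (5.76%, 4.21 to 7.84%) in crosslinked replicate 2. In SPRRNA.12 it had 38 in 1291 (2.94%, 2.15 to 4.01%) and 23 in 645 (3.57%, 2.39 to 5.29%). In SPRRNA.53 it had 15 in 401 (3.74%, 2.28 to 6.08%) and 17 in 224 (7.59%, 4.79 to 11.8%). Within each of these copies the intervals of the replicates overlapped, and position 38 held the most conversions of the copy in both libraries. In SPRRNA.15 it had 13 in 558 (2.33%) and 8 in 251 (3.19%), where the 8 conversions equalled those at position 72 of that copy. SPRRNA.36, an identical copy, had 2 in 49 (4.08%) and 4 in 31 (12.9%). SPRRNA.40 was called there with 1 of 3 reads in crosslinked replicate 1 only, and SPRRNA.05 with 2 of 18 reads in crosslinked replicate 2 only. In SPRRNA.53 it was called far from the read peak of the copy, which lay at position 79. Among the 5S copies aligned to the core without a gap, which leaves out SPRRNA.54, none has a C at position 38 and 34 have the T.

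The neighbouring T at position 33 was called in 4 copies, with 36 of 2434 reads (1.48%) in crosslinked replicate 1 and 27 of 1521 (1.78%) in crosslinked replicate 2. At position 53, called in 3 copies, 33 of 1839 reads (1.79%) and 25 of 1352 (1.85%) were converted. At position 81, also in 3 copies, the counts were 25 of 1732 (1.44%) and 13 of 734 (1.77%). These summed rates lay below that at position 38 in both libraries. In each called copy the 25-nt window occurred 34 times in the reference genome at position 53 and 33 times at position 81. Position 79 gave 17 of 1422 (1.20%) and 12 of 1006 (1.19%). Among the copies aligned without a gap, the divergent SPRRNA.41 is the only one with a C aligned to positions 33 and 79. SPRRNA.30 and SPRRNA.40 have a C at position 12 (T12C), where SPRRNA.36 was called with 3 of 84 reads in crosslinked replicate 1.

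At positions 102 and 112, near the 3′ end of the core, more copies were called in crosslinked replicate 1, the deeper library. Depth in crosslinked replicate 2 was a median of 0.539 times that in crosslinked replicate 1 at shared 5S positions. The calls at position 112 rested on 3 to 7 conversions each. The part of depth in the missing calls was not tested. Position 102 had 32 of 788 reads (4.06%) over 4 copies in crosslinked replicate 1 and 7 of 356 (1.97%) over 2 copies in crosslinked replicate 2, and position 112 had 16 of 605 (2.64%) over 3 copies in crosslinked replicate 1 with no call in crosslinked replicate 2. In crosslinked replicate 1 most of the conversions at position 102 came from SPRRNA.18, whereas in crosslinked replicate 2 SPRRNA.18 gave 3 and SPRRNA.53 gave 4. SPRRNA.18 had 23 of 236 reads converted at position 102 in crosslinked replicate 1 (9.75%) and 3 of 135 in crosslinked replicate 2 (2.22%). That copy is set apart by its last base alone (T119C). This was the only shared rRNA position at which the libraries differed at an unadjusted p under 0.05 (two-sided Fisher exact p = 0.00547), and it did not pass after Benjamini-Hochberg adjustment over the 276 nuclear positions called in both libraries (adjusted p = 0.302).

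**Figure D3:**
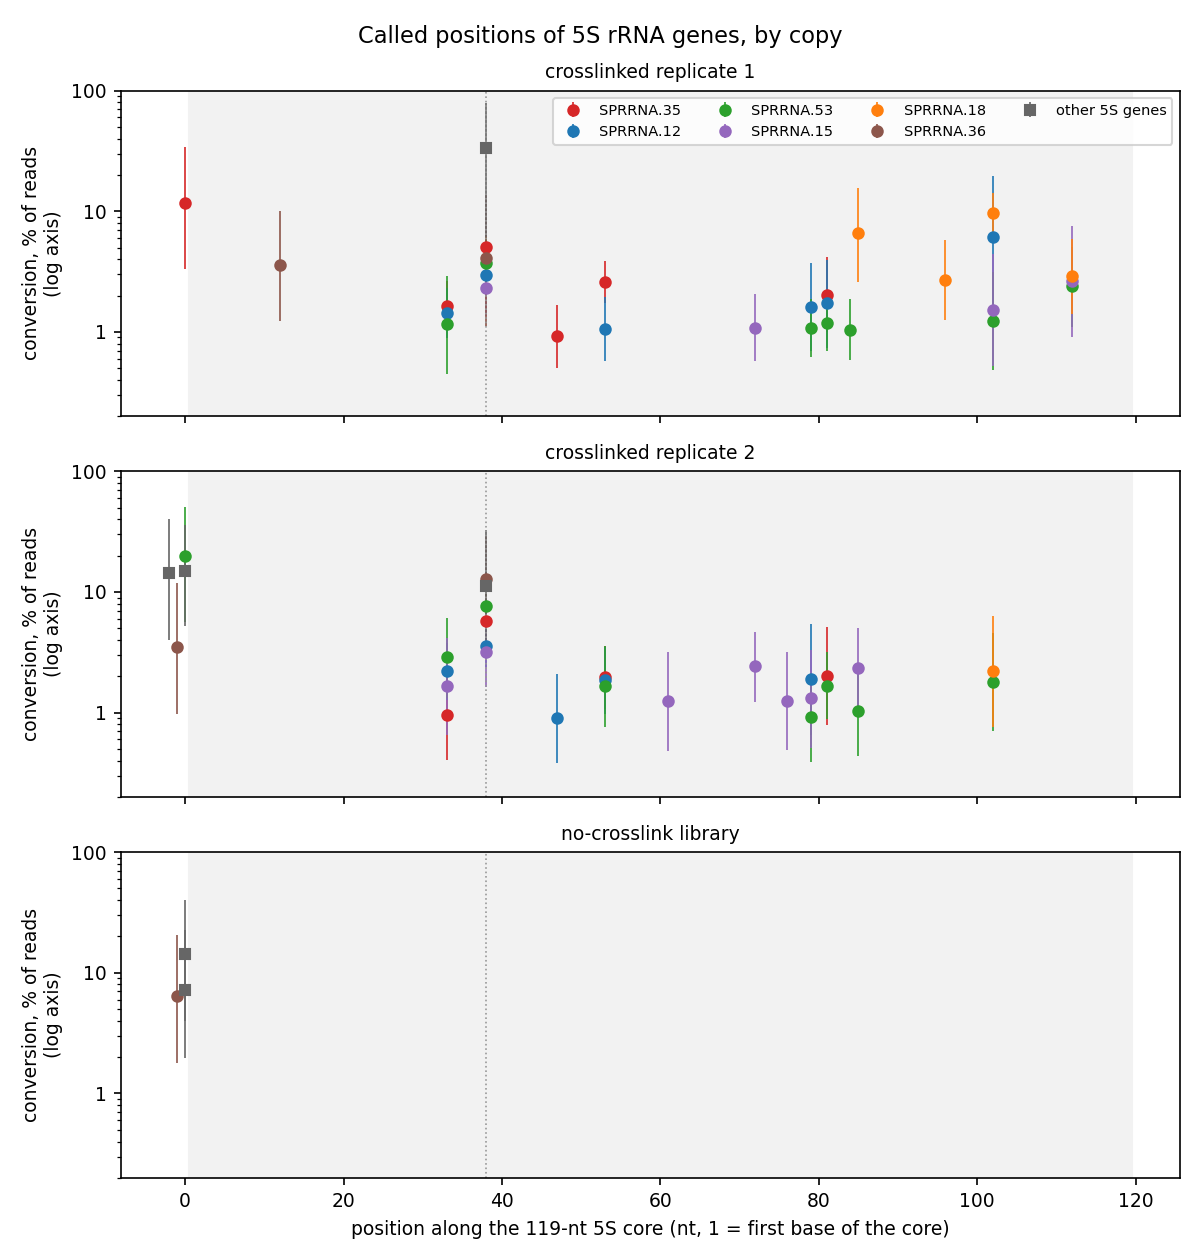
Conversion rate (% of reads, log axis) at each called 5S position, placed along the 119-nt core, with a panel each for crosslinked replicate 1, crosslinked replicate 2 and the no-crosslink library; bars are 95% Wilson intervals and colours are copies. Position 38 (dotted line) is called in 6 copies in each crosslinked library, whereas the 3 no-crosslink positions all lie just upstream of the core (shaded).

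The no-crosslink library had no called position within the core of any 5S copy, where its depth is unknown. Its 3 positions near 5S genes lay just upstream of the core, at the base before it or the base before that. SPRRNA.27 had 2 conversions in 28 reads at the base before the core (7.14%), the only one of these inside an annotated gene. SPRRNA.10 had 3 in 20 reads there in crosslinked replicate 2 and 2 in 14 (14.3%) in the no-crosslink library. SPRRNA.36 had 2 in 57 (3.51%) in crosslinked replicate 2 and 2 in 31 (6.45%) in the no-crosslink library, a base further out. Within 10 nt of the annotated genes, these are the only 5S positions called in both a crosslinked and the no-crosslink library, and no difference in rate was found by two-sided Fisher exact test (adjusted p = 1.0 for SPRRNA.10 and 0.866 for SPRRNA.36). With 2 or 3 conversions in each library, these tests cannot show that the rates are equal. Both positions lie outside the annotated bounds, so 0 positions inside rRNA genes could be compared. Among all nuclear positions called in both, 9 of 41 (22.0%) differed from the no-crosslink library in crosslinked replicate 1 and 11 of 34 (32.4%) in crosslinked replicate 2, at an adjusted p under 0.05.

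Other upstream positions were called in crosslinked libraries only. They were the base before the core in SPRRNA.35, with 2 of 17 reads (11.8%) in crosslinked replicate 1, and in SPRRNA.53, with 2 of 10 reads in crosslinked replicate 2. SPRRNA.26 had 2 of 14 (14.3%) a few bases upstream of its core in crosslinked replicate 2. All upstream calls, in the crosslinked and the no-crosslink libraries alike, thus rested on 2 or 3 conversions.

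The crosslinked libraries were then compared position by position. Of the rRNA positions, 19 were called in both, which is 44.2% of those in crosslinked replicate 1 and 61.3% of those in crosslinked replicate 2. Among all nuclear positions 276 were shared, 4.21% of crosslinked replicate 1 and 5.82% of crosslinked replicate 2. Calls on few reads were unevenly spread. In crosslinked replicate 1, 3399 of 6560 nuclear positions rested on 1 conversion in 3 reads and in crosslinked replicate 2 3089 of 4742, but only 4 and 0 of the rRNA positions did. The part of this in the overlap was not tested.

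Of the 19 shared positions 17 were in 5S genes. None of the 19 differed in conversion rate between the crosslinked libraries by Fisher exact test with Benjamini-Hochberg adjustment, where 0 of 276 nuclear positions did (0.00%). The count was also 0 by chi-square test, and 1 of the 19 had an unadjusted Fisher p under 0.05. The rate was higher in crosslinked replicate 1 at 5 of the 17 5S positions and in crosslinked replicate 2 at 12, while 202 of the 276 nuclear positions were higher in crosslinked replicate 2. Across the 17 positions, which share libraries, copies and depth, the rates had a Spearman rho of 0.63 as a description. Depth in crosslinked replicate 2 was a median of 0.539 times that in crosslinked replicate 1 at these positions, and 0.488 times over all 276.

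**Figure D4:**
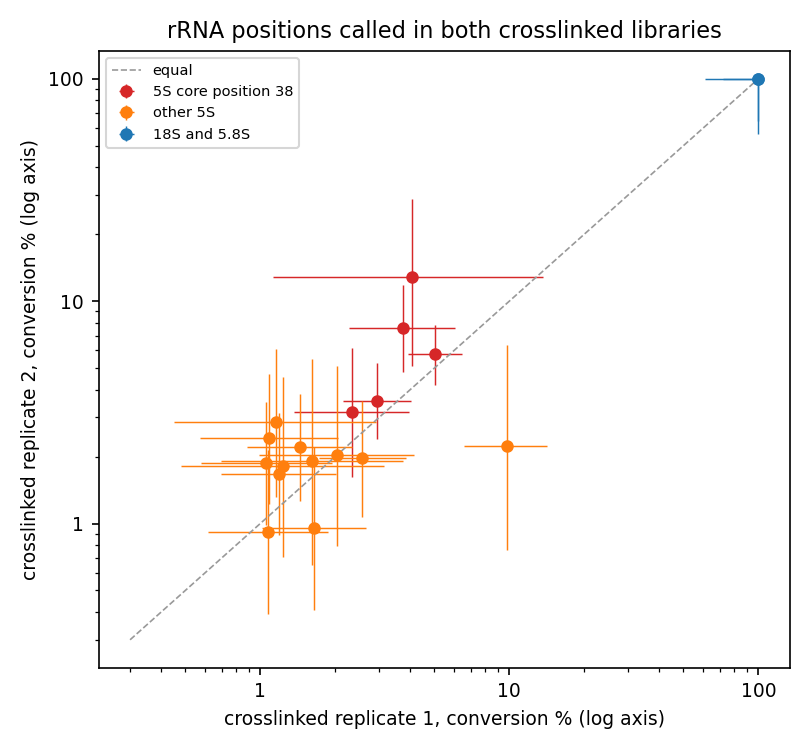
Conversion rate (% of reads, log axes) in crosslinked replicate 1 (horizontal) and crosslinked replicate 2 (vertical) at the 19 rRNA positions called in both, with 95% Wilson intervals; the dashed line marks equal rates. The 5 copies at core position 38 (red) lie to the upper right of most other 5S positions, the 18S and 5.8S positions lie on top of each other at 100%, and SPRRNA.18 at position 102 lies farthest below the line (9.75% and 2.22%).

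The authors also list an occupancy, the number of conversions divided by the read depth of a reference library. By this measure position 38 of SPRRNA.35 ranked highest of all nuclear positions in both crosslinked libraries, at 59.0 in crosslinked replicate 1 and 37.0 in crosslinked replicate 2. In all, 5 of the 21 highest-ranked nuclear positions of crosslinked replicate 1 and 6 of the 20 of crosslinked replicate 2 were 5S positions. The median 5S occupancy was 6.0 and 4.0, against 0.00871 and 0.00719 for all nuclear positions. Every 5S position had a reference depth of 1 or 2, whereas the nuclear medians were 149 and 162, and only 3.17% and 3.14% of nuclear positions had a depth of 1 or 2. The occupancy of 5S positions is therefore close to the raw conversion count.

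Turning to the long repeats, all but 1 of the called 18S, 5.8S and 28S positions lay in the genes of 1 repeat near the right end of chromosome III, SPRRNA.46 (18S), SPRRNA.52 (5.8S) and SPRRNA.49 (28S). These genes are identical to the full copies near the left end, with 0 differences over 1842 nt of 18S, 165 nt of 5.8S and 3485 nt of 28S, so reads cannot be told apart by copy. Only 2 positions were called in both crosslinked libraries. Their surroundings in the reference are shown because every read was converted there, and the called T is the capital.
18S, SPRRNA.46, III:2442583-2442612, plus strand: cattgcaattattgcTcttcaacgaggaat
5.8S, SPRRNA.52, III:2443338-2443367, plus strand: ccgtgaatcatcgaaTctttgaacgcacat

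The 18S position, base 1605 of the gene of the small-subunit RNA (III, 2442598), was converted in 10 of 10 reads in crosslinked replicate 1 (Wilson interval 72.2 to 100.0%) and 5 of 5 in crosslinked replicate 2 (56.6 to 100.0%). The 5.8S position, base 106 of the short RNA that pairs with 28S (III, 2443353), was converted in 6 of 6 (61.0 to 100.0%) and 7 of 7 reads (64.6 to 100.0%). Neither was called in the no-crosslink library, whose depth at these bases is unknown. Over its nuclear positions that library summed to 15100 covering reads, against 586303 and 262083 in crosslinked replicates 1 and 2. The missing calls therefore cannot show whether these conversions depend on crosslinking. In the 28S gene no position was shared: bases 704, 3152, 3331 and 3375 were called in crosslinked replicate 1 with 3 to 5 reads each, and bases 50 and 239 in crosslinked replicate 2 with 3 reads each. In crosslinked replicate 1, 18S was also called at bases 1270 (3 of 5 reads), 1337 (5 of 6), 1811 and 1813 (1 of 3 each), and 5.8S at base 37 (4 of 5).

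These low-depth calls at high rates stood out from the 5S calls. Of the 59 nuclear positions with at least 2 conversions and a rate of at least 50% in crosslinked replicate 1, 8 (13.6%) were in 18S, 5.8S or 28S, and of the 59 in crosslinked replicate 2, 4 were (6.78%). At any rate, these genes held 10 of the 3161 nuclear positions with at least 2 conversions in crosslinked replicate 1. In crosslinked replicate 2 they held 4 of 1653. With at least 20 reads required, the share of nuclear conversions in these genes dropped to 0.0180% as the mean of the crosslinked libraries, against 0.201% ± 0.059 (SD, n = 2) without that requirement. Deep coverage was seen at 1 called base, the last of the 5.8S gene (base 165), with 3 of 197 reads (1.52%) in crosslinked replicate 1. The call outside this repeat was base 869 of SPRRNA.42, a truncated 18S copy at the left end (III, 522), with 2 of 20 reads in crosslinked replicate 1. That copy differs from SPRRNA.46 only by an undetermined base, at base 847.

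The spacers next to these genes, which no annotated rRNA gene covers, were called at 5S-like rates on more reads than most positions inside the genes. Of their 25-nt windows, 10.1% in ITS1 and 12.0% in ITS2 occurred once in the reference genome. In SPRRNA.46, SPRRNA.52 and SPRRNA.49 that share was 0%. How reads matching several copies were placed is not known, and its part in this contrast was not tested. ITS2 of the right-end repeat (III, 2443413 to 2443712, 300 nt) is shown from its first base, because its calls fall close together there; capitals mark T called in either crosslinked library.
ITS2, III:2443413-2443462, plus strand: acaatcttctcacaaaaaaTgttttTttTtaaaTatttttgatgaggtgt

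In ITS2, the T at III 2443432 was called in both crosslinked libraries, with 6 of 367 reads (1.63%) in crosslinked replicate 1 and 5 of 240 (2.08%) in crosslinked replicate 2. The other calls were 5 of 390 reads at 2443446 in crosslinked replicate 1 and, in crosslinked replicate 2, 4 of 257 at 2443438, 4 of 258 at 2443441 and 2 of 32 at 2443572. In total ITS2 had 11 conversions in crosslinked replicate 1 and 15 in crosslinked replicate 2, and no call in the no-crosslink library. ITS1 (412 nt) had 4 positions with 12 conversions in crosslinked replicate 1, at 42 to 184 reads and rates of 1.63 to 5.88%, and no call in crosslinked replicate 2 or in the no-crosslink library. The reference depth at the ITS2 positions near 5.8S was 168 or 169, unlike the depth of 1 at most mature 18S, 5.8S and 28S positions.

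Messenger RNAs of factors that make or bind rRNA were counted last, as genes with a sense position in both crosslinked libraries. Of the symbols listed, 7 of 8, 13 of 16, 28 of 31 and 17 of 17 matched the annotation in the 4 lists below, in their order, and the others were left out. The background was 1529 of 5113 protein-coding genes (29.9%). Of the 7 genes for the 5S ribonucleoprotein and TFIIIA, 3 had one (42.9%): rpl501, with 26 conversions in crosslinked replicate 1 and 11 in crosslinked replicate 2, rpl502 with 11 and 3, and rpl1102 with 10 and 5. These encode the proteins that bind 5S RNA, in near-identical gene pairs whose reads may be shared. The TFIIIA gene sfc2 had 2 and 0. Of 13 genes for RNA polymerase I and its factors, 4 had one (30.8%), among them nuc1, the largest subunit (11 and 2 conversions), rpa2, the second-largest (6 and 1), and reb1, which encodes a factor that stops transcription in the rDNA (4 and 1).

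Of 28 genes for pre-rRNA processing, 12 had a position in both crosslinked libraries (42.9%). They included rrp5, a processing factor for both subunits (15 and 6 conversions), gar2, a nucleolin-like protein (11 and 6), and nog2, a GTPase of large-subunit assembly (9 and 7). Of 17 genes for the exosome, other nucleases and their helpers, which trim or degrade rRNA, 3 had one (17.6%), with dis3, the catalytic subunit, at 1 and 3 conversions and air1, a partner in the TRAMP complex, at 3 and 1. Together 22 of 65 list genes qualified (33.8%), near the background. With at least 2 conversions required in each library, 10 of 65 did (15.4%), against 412 of 5113 protein-coding genes (8.06%).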

How the data were processed

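PAR-CLIP positions were available for 3 libraries, in tables deposited by the authors with 1 row per called position. Per the file headers, each row gives counts of T-to-C reads and of covering reads, a p-value of the authors' caller and an occupancy, the ratio of conversions to a reference depth. Bowtie 1.1.1, SAMtools and the build ASM294v2 are named in the submitters' processing notes; no source used here gives the site caller, its thresholds, the reference library or how reads matching several places were handled. The lowest read count listed was 3, and the depth of bases that were not called is unknown.

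Positions were assigned by strand to RefSeq genes of ASM294v3, whose base was T at all 6560, 4742 and 127 nuclear positions. Wilson intervals (95%) cover counting error only. Rates at positions called in 2 libraries were compared by two-sided Fisher exact test, adjusted by Benjamini-Hochberg over all shared nuclear positions (threshold 0.05); this compares libraries, not conditions. The procedure was tested on simulated data. The 5S genes were aligned to the common core with Biopython 1.88, and 25-nt windows were counted on both strands of the reference. Tools were Python 3.11.15, SciPy 1.17.1, pandas 2.3.3 and matplotlib 3.10.9.

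Named were, for each of 5S, 18S, 5.8S and 28S, up to 8 genes with most conversions, every rRNA position called in both crosslinked libraries or in the no-crosslink library, up to 5 further positions per class and library, and up to 3 genes per list of factors. SPRRNA.05, copies without calls, the spacer positions and the high-rate positions were added after values were seen. Members and lists were chosen with earlier results of these data known. Alternatives varied the minimum of conversions and of reads, gene bounds, the denominator, the positions called without crosslinking, the test and the library left out.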

Additional observations from a re-analysis of the deposited data

How the results depend on the processing

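The mean rRNA share of nuclear conversions (2.08%) was 2.72% with at least 2 conversions required, 2.69% with at least 20 reads, 2.32% without positions called in the no-crosslink library and 1.99% over all listed positions. The 5S share (1.87%) was 2.47%, 2.68% and 2.10% under the first 3 of these, and the 18S, 5.8S and 28S share (0.201%) was 0.0180% with at least 20 reads. The rRNA share of positions (0.655%) was 1.55%, 1.54%, 0.659% and 0.644% in the same order, and 0.686% with gene bounds widened by 10 nt. Each of these moves was larger than the SD of 0.00124 over the crosslinked libraries. The median rate was 2.05% with at least 20 reads, against 2.46%. With each crosslinked library left out in turn, the values ran from 2.03 to 2.12% for rRNA conversions, 1.79 to 1.96% for 5S, 0.159 to 0.243% for 18S, 5.8S and 28S, 0.654 to 0.655% for positions, 2.20 to 2.71% for the median rate and 7 to 8 for 5S genes called. Factor genes with a position in both libraries numbered 22, 10 with at least 2 conversions, and 35 to 39 in a single library (35 without crosslinked replicate 1, 39 without crosslinked replicate 2), since a call in both is a stricter requirement. Of the rRNA positions called in both crosslinked libraries, 0 differed under Fisher, chi-square, Bonferroni and the 20-read minimum; against the no-crosslink library no rRNA position could be compared. No paired analysis was possible because the crosslinked and no-crosslink libraries share a single replicate number, and the RNA-seq groups were not analysed here. Depth limits the 18S, 5.8S and 28S rates, which mostly rest on 10 or fewer reads.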
